A study of Mus musculus with 4 samples.

Results

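Bone morphogenetic proteins (BMPs) are secreted ligands that bind pairs of type I and type II receptors on the cell surface. The activated receptors phosphorylate SMAD proteins, which enter the nucleus and switch on genes such as those of the Id family, whose products bind basic helix-loop-helix factors and keep them off DNA. In the ovary, BMP signals and the related anti-Müllerian hormone (AMH) act on the somatic cells that surround the oocytes. FOXL2, a DNA-binding protein of the forkhead family, is made by the precursors of granulosa cells, which nurse the oocyte.

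The 10 genes described here are the ligand genes Bmp2, Bmp4 and Bmp7, the receptor genes Bmpr1a, Bmpr1b, Bmpr2 and Amhr2, and the target genes Id1, Id2 and Id3. They were chosen by name, by a rule that uses no peak values, from 21887 protein-coding genes, called coding genes below, though with earlier results of these data known. FOXL2 binding was mapped by ChIP-seq, in which DNA bound by a protein is recovered with an antibody and sequenced. The chromatin came from ovaries of XX embryos of the CD1 mouse strain at stage E14.5, freed of the mesonephros, with no mutation or treatment named. The series held 2 FOXL2 ChIP samples, each from its own pool of 80 to 100 ovaries, and 2 input samples, which were sequenced without an antibody. Whole ovaries hold germ cells and several somatic cell types, so a peak cannot be assigned to a cell type, and peak positions give no check of the tissue label. The deposited values were the positions of 11438 peaks on mm10, each 300 bp wide, in 1 list for the ChIP samples. The list gave no height, score or value per sample. The depth is therefore unknown, no value below has a replicate error, and no test was made. A gene without a peak may still be bound below the authors' threshold.

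Of the 10 genes, 8 had a peak centre inside the gene or within 100 kb of it, a stretch called the window below. Of all coding genes 76.3% had such a peak, so this share was close to the background. The windows of the 10 genes held 30 different peaks. Only 8 of these lay nearer to an end of the gene in question than to an end of any other coding gene. Such nearest peaks were found for 6 of the 10 genes, against 40.4% of all coding genes, and the genes were Bmp2, Bmpr1a, Bmpr1b, Bmpr2, Id1 and Id3. The other 22 peaks lay nearest to neighbouring genes, 16 of them within 1 kb of an end or listed transcription start of another gene. Peaks inside the gene were found in 3 of the 10, Bmp2, Bmpr1a and Bmpr1b, against 36.2% of all coding genes. With the window cut to 10 kb, 5 of the 10 had a peak, against 49.6%.

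**Figure D1:**
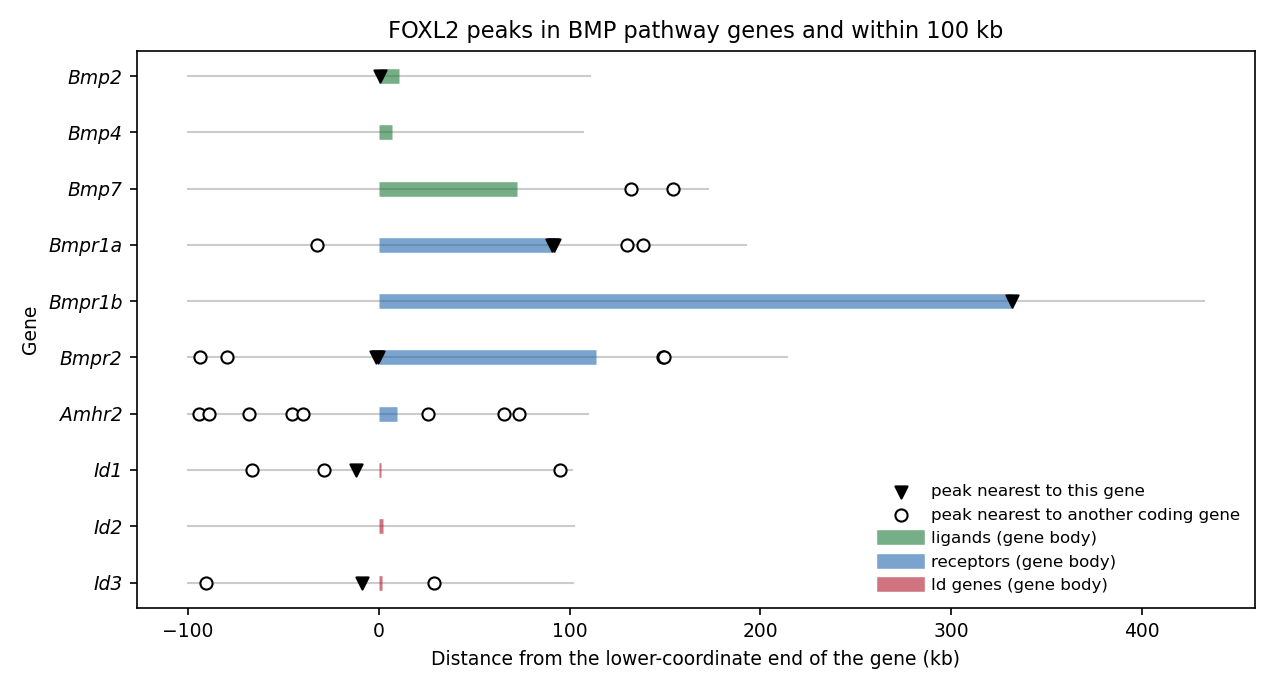
Positions of FOXL2 peaks along the 10 genes and 100 kb on each side, in kb from the lower-coordinate end of each gene. Thick bars are gene bodies, filled triangles are the 8 peaks nearest to the gene in question and open circles the 22 peaks nearest to another coding gene. The filled triangles sit inside a gene end in Bmp2, Bmpr1a and Bmpr1b, just outside the gene at Bmpr2, and farther outside at Id1 and Id3.

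RefSeq promoters of build GRCm38.p6 (the assembly that mm10 denotes), from 250 bases before to 50 after the start, were at hand for 7 of the 10, namely Bmp4, Bmpr1a, Bmpr1b, Bmpr2, Amhr2, Id2 and Id3, and none of these promoters overlapped a peak. The sequences of Bmpr1a (chr14:34502497-34502796, minus strand), Bmpr2 (chr1:59764029-59764328, plus strand) and Id3 (chr4:136143572-136143871, plus strand) are shown because they lay closest to a peak. The sequence of Rae1 (chr2:172999960-173000166, plus strand) is the part of a promoter that lay under the peak closest to Bmp7. All run 5′ to 3′. Capitals mark matches, on either strand, to the forkhead core TAAACA, the short SMAD motif CAGAC and the GC-rich BMP-SMAD motif GGCGCC.
Bmpr1a: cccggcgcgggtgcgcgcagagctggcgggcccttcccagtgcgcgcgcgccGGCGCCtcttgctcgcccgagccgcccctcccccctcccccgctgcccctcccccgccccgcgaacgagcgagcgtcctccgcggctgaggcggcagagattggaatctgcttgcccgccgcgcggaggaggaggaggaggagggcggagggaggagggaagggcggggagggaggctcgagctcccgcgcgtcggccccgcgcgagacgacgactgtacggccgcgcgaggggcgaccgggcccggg
Bmpr2: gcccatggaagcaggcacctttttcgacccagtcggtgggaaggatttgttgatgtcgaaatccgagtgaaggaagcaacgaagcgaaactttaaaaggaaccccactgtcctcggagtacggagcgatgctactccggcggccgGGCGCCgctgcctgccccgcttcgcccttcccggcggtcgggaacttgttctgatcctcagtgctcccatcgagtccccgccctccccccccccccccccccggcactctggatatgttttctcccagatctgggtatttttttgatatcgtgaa
Id3: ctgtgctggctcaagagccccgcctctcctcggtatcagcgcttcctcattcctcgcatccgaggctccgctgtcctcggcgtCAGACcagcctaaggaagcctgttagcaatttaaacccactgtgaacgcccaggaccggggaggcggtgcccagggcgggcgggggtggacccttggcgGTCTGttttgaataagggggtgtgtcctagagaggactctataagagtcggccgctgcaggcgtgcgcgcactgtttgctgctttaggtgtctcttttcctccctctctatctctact
Rae1: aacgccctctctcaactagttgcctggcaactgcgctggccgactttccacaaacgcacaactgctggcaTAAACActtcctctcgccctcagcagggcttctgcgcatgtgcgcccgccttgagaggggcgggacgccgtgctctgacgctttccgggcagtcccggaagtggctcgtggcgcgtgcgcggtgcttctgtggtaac
Each of the Bmpr1a and Bmpr2 promoters held a single GGCGCC, 198 and 105 bp upstream of the start, as did that of Id2, 231 bp upstream. The Id3 promoter held CAGAC 167 bp upstream and its reverse complement 68 bp upstream. The 207 bp of the peak that lie in the Rae1 promoter held a single TAAACA.

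Among the ligands, Bmp2 alone had a nearest peak. Bmp2 encodes a BMP made by granulosa cells, and its peak on chromosome 2, at 133552576 to 133552875, was centred 566 bp inside the lower-coordinate end of the 10.7 kb gene. This was the only peak in the Bmp2 window, which holds no other coding gene. The next peak was 363 kb above the gene.

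Bmp4, on chromosome 14 from 46383525 to 46390669, encodes a BMP closely related to Bmp2 and had no peak in its window. Its nearest peak was 370 kb away and lay nearest to the neighbouring gene Cdkn3. A nearest peak at least this far was found for 10.7% of coding genes. Like Bmp2, Bmp4 had no other coding gene within 100 kb, and 5.40% of coding genes shared that isolation. Of the 1181 such genes, 39.4% had a peak in their window, as Bmp2 did and Bmp4 did not.

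Bmp7 encodes a BMP known for its part in kidney and eye development. It had 2 peaks in its window, 59.8 and 81.7 kb above the gene. Both lay at other genes, the first centred 8 bp upstream of the listed start of Rae1, an mRNA export factor, and the second 153 bp downstream of that of Rbm38, an RNA-binding protein. No peak was found inside the 72.3 kb Bmp7 gene, and none in the 309 kb between it and Tfap2c was nearest to Bmp7. The 3 ligand windows together held 3 peaks, 0.435 per 100 kb, against 0.932 per 100 kb over the windows of all coding genes.

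The 4 receptor windows held 20 peaks, 1.48 per 100 kb, but 15 of these lay nearest to other genes, 8 of them in the Amhr2 window. Nearest peaks alone came to 0.371 per 100 kb for receptors, 0.331 for Id genes and 0.145 for ligands. A nearest peak was found for 3 of the 4 receptor genes, Bmpr1a, Bmpr1b and Bmpr2, and all 5 of their nearest peaks lay no more than 1324 bp from a gene end.

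Bmpr1a encodes a type I receptor that is used by BMP ligands and by AMH. It had 2 nearest peaks on chromosome 14, at 34501946 to 34502245 and 34502844 to 34503143. They flanked the listed start of the gene almost evenly, with centres 451 bp downstream and 447 bp upstream, and the promoter shown above lies between them. A peak centre within 500 bp on each side of a listed start was found for 1.09% of the 17492 coding genes with a listed start. The limit of 500 bp was not planned and narrowly takes in both centres, so this share gives no measure of chance. The upstream peak still lay inside the gene, 343 bp from its end, because other transcripts of Bmpr1a begin farther upstream. Of the other 3 peaks of the window, 1 lay inside Mmrn2, which encodes a protein of endothelial cells, and 2 lay inside Ldb3, which encodes a muscle protein.

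Bmpr2 encodes the type II BMP receptor. It also had 2 nearest peaks, on chromosome 1 at 59762806 to 59763105 and 59763627 to 59763926, and both lay upstream of the listed start. Their centres were 1324 and 503 bp from it, and none was inside the 114 kb gene. Bmpr1a and Bmpr2 thus each had 2 peaks within 2 kb of a listed start, as had 3.57% of coding genes, while 39.6% of coding genes had at least 1. Both also had 2 nearest peaks in their window, as had 8.18% of all coding genes. The paired centres were 898 bp apart at Bmpr1a and 821 bp apart at Bmpr2, whereas 10.4% of all peaks had another peak within 1 kb. The 1 kb limit was not planned and takes in both distances, and the classes of 2 peaks match what the genes have. These shares therefore give no measure of chance. Other peaks of the Bmpr2 window lay 66 bp inside Nop58 and at Fam117b, which had a pair of its own 28 and 630 bp inside.

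**Figure D2:**
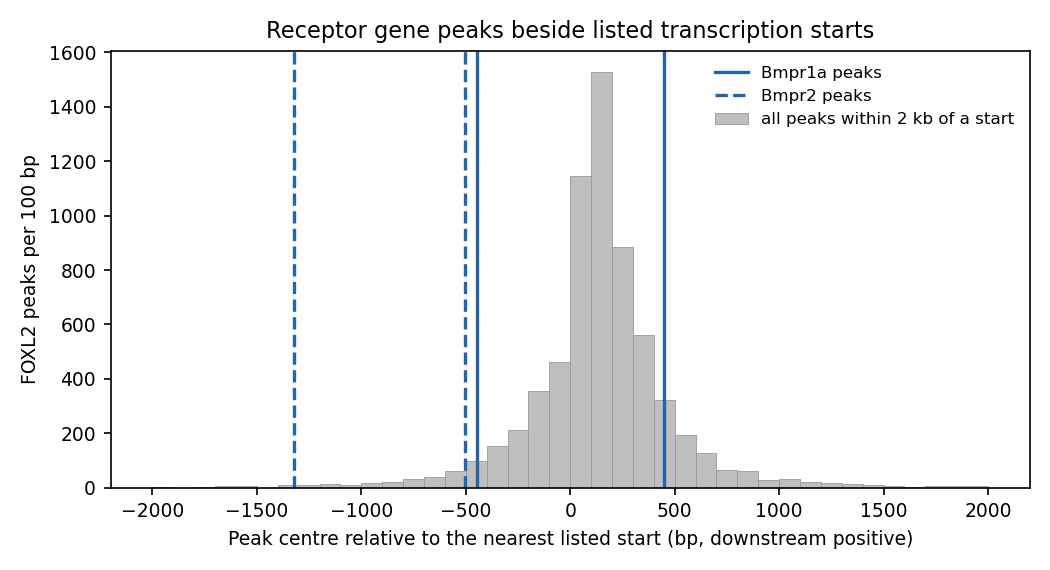
Peak centres relative to the nearest listed transcription start, in bp with downstream positive, for the peaks of Bmpr1a (solid lines) and Bmpr2 (dashed lines) and for 6574 peaks within 2 kb of a start of a coding gene (grey bars, peaks per 100 bp). The receptor peaks sit on the flanks of the distribution, whose fullest interval, from 100 to 200 bp downstream, holds 1529 peaks.

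Measured from the listed start, the pairs at Bmpr1a and Bmpr2 lay farther away than most peaks. Over the 6574 peaks within 2 kb of a listed start of a coding gene, the median position was 138 bp downstream, with quartiles of 15 and 278 bp, and 19.3% lay at least 400 bp away. Each of these 4 receptor peaks was over 400 bp from its listed start. That limit was not planned and lies just under the closest of them, at 447 bp. Upstream positions were taken by 3 of the 4, whereas 76.7% of all these peaks were downstream. Both distance and side depend on which start is listed. The upstream Bmpr1a peak lay 343 bp inside the outer end of the gene, so from that end it was downstream. The Bmpr1b peak, 341 bp inside the outer end of its gene, is not among the 4 because no start is listed there.

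Bmpr1b encodes a type I BMP receptor known for its part in the fertility of female mice and sheep. Its only peak, on chromosome 3 at 142169095 to 142169394, was centred 341 bp inside the higher-coordinate end of the 332 kb gene. The gene is on the minus strand, so this end is the one from which its outermost transcript runs. The starts listed in the promoter table lie much farther inside, and the nearest of them is 187 kb downstream of the peak. Of the 12 RefSeq transcripts of Bmpr1b, the peak thus lay next to the outermost start. No other peak occurred in its 532 kb window, the longest of the 10, which gave the lowest density among the 8 genes with a peak, 0.188 per 100 kb.

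Amhr2 encodes the type II receptor of AMH and had 8 peaks in its window, the most of the 10 genes. At least as many were found for 328 of all 21887 coding genes. None of the 8 lay nearest to Amhr2, and the closest was 16.3 kb above the gene, 288 bp downstream of the listed start of Pcbp2. Other peaks were 155 bp inside Aaas, 93 bp downstream of the listed start of Map3k12 and 394 bp downstream of that of Tarbp2. Sp1, which encodes a general transcription factor, had peaks 869 bp and 6.54 kb upstream of its listed start. Sp7, a transcription factor of bone-forming cells, was the nearest coding gene of 2 more, 775 bp and 10.1 kb outside it, and the first of these lay closer to the noncoding RNA gene Gm36246, at 689 bp. The Amhr2 window held 9 other coding genes, more than that of any of the other 9 genes.

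**Figure D3:**
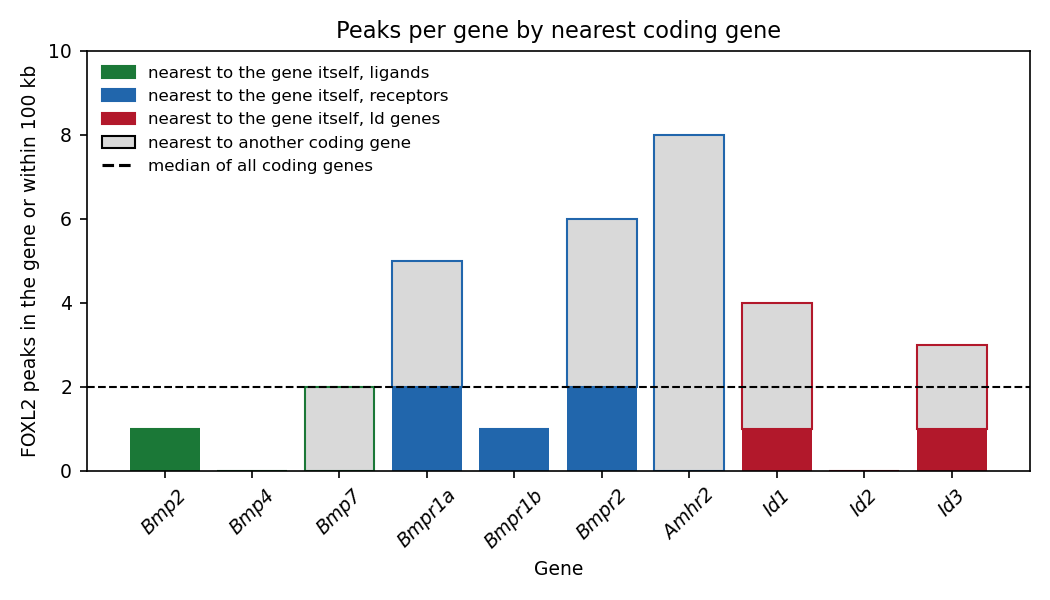
FOXL2 peaks in each gene or within 100 kb, as counts. Coloured parts are peaks nearest to the gene itself, grey parts are peaks nearest to another coding gene, and the dashed line is the median of 2 over all coding genes. Amhr2 has the tallest bar, 8 peaks, and no coloured part.

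The Id windows held 7 peaks, of which 2 were nearest peaks, and neither lay inside a gene. The Id genes are short, from 1.16 to 2.29 kb. Id1 had a peak on chromosome 2, at 152723936 to 152724235, centred 12.2 kb below the gene in the 27.6 kb gap between it and H13. Its other 3 peaks were 163 and 1006 bp inside the ends of H13, an intramembrane protease, and inside the apoptosis inhibitor gene Bcl2l1, 432 bp upstream of the listed start of that gene.

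Id3 had a peak on chromosome 4, at 136134819 to 136135118, centred 8.85 kb upstream of its listed start. This peak was 3.63 kb from the noncoding RNA gene Gm42329, to which it is assigned when genes of all kinds are considered. The other peaks in the window lay 160 bp inside Rpl11, a ribosomal protein gene, and 636 bp inside the cell cycle gene E2f2.

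Id2, on chromosome 12 from 25093799 to 25096092 on the minus strand, had no peak in its window, as 23.7% of coding genes had none. Upstream of Id2 lies a gap of 1211 kb without a coding gene. In this gap, 3 peaks were centred 145, 150 and 173 kb upstream of the gene, and Id2 was the nearest coding gene of each. They lay on chromosome 12 at 25240500 to 25240799, 25246408 to 25246707 and 25269343 to 25269642, the first pair 5.91 kb apart. No gene border of any kind was within 10 kb of them, the closest being that of the noncoding RNA gene Gm36287 at 10.4 kb. Peaks over 100 kb from every coding border made up 4.45% of the list. Of these 509 peaks 3.73% had another peak within 10 kb, against 21.4% of all peaks. That comparison was not planned, and the pair near Id2 is itself counted in it, so the share gives no measure of chance.

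**Figure D4:**
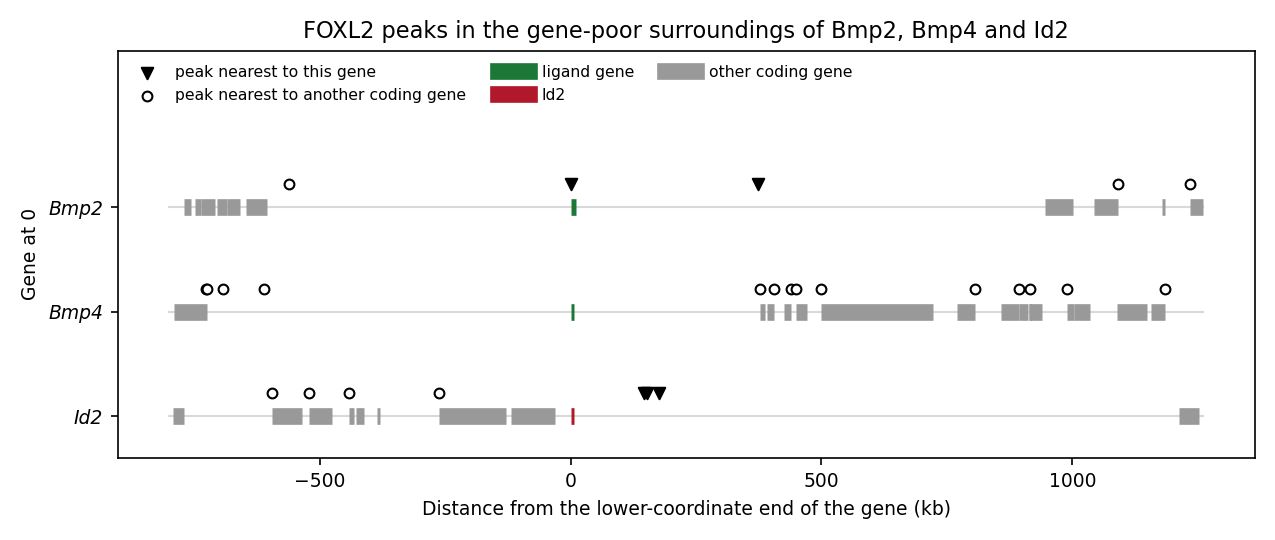
FOXL2 peaks around Bmp2, Bmp4 and Id2, in kb from the lower-coordinate end of each gene. Bars are coding genes, drawn at least 6 kb wide, filled triangles are peaks nearest to the named gene and open circles are peaks nearest to another coding gene. On this scale Id2 has 3 filled triangles between 147 and 176 kb, Bmp2 has 1 in the gene and 1 at 374 kb, and Bmp4 has none.

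With no limit on distance, 7 of the 10 genes had a nearest peak, against 40.8% of all coding genes, and the nearest peaks came to 12, through the 3 of Id2 and the distant peak of Bmp2. A nearest peak over 100 kb away was found for 1.83% of coding genes, and 3 or more such peaks for 0.105%, or 23 genes, of which Id2 is one. These counts were not planned, and the class of 3 or more matches what Id2 has, so its share gives no measure of chance. Such peaks also need a wide gap between coding genes, like the 1211 kb beside Id2, and the shares were not taken among genes with like gaps. At any distance, 3 or more nearest peaks were found for 2.01%. Bmp4, Bmp7 and Amhr2 remained without a nearest peak.

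Set side by side, a nearest peak within 100 kb was found for 1 of 3 ligands, 3 of 4 receptors and 2 of 3 Id genes. The share over all coding genes was 40.4%, and classes of 3 or 4 genes are too small to tell apart from it. Peaks inside the gene occurred in 1 ligand, 2 receptors and 0 Id genes, against 36.2% of all coding genes. The median number of peaks in the window was 1 for ligands, 5.5 for receptors and 3 for Id genes, against 2 for all coding genes. The median distance from the gene to its nearest peak was 59.8 kb for ligands, 0.252 kb for receptors and 12.2 kb for Id genes, against 10.6 kb for all coding genes. The classes also differed in the number of other coding genes in the window, with medians of 0, 5 and 3 for ligands, receptors and Id genes against 4 for all coding genes. They differed in gene length too, with medians of 10.7, 103 and 1.57 kb against 17.2 kb. The part of gene density and length in the class counts was not tested.

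Over all coding genes, windows with more neighbouring genes held more peaks. Coding genes with no other coding gene in the window had a median of 0 peaks, those with 1 to 2 a median of 1, those with 3 to 5 a median of 2, those with 6 to 9 a median of 3 and those with 10 or more a median of 4. Beside genes in the same range of neighbours, Bmpr2 with 6 peaks (3 neighbours) was above the upper quartile of 3. Amhr2 with 8 and Bmpr1a with 5 (9 and 7 neighbours) were above that of 4. Window length, 314 kb at Bmpr2, 292 kb at Bmpr1a and 210 kb at Amhr2, was not matched. Id1 with 4 was above the upper quartile of 3 and Id3 with 3 was on it. Bmp7 with 2 and Bmpr1b with 1 were at the median, Id2 and Bmp4 had 0, and Bmp2 with 1 was on the upper quartile. Having 2 nearest peaks, as Bmpr1a and Bmpr2 do, was found for 4.40% of genes with 6 to 9 neighbours and 8.39% of genes with 3 to 5. This class too matches what these genes have, so its shares give no measure of chance.

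**Figure D5:**
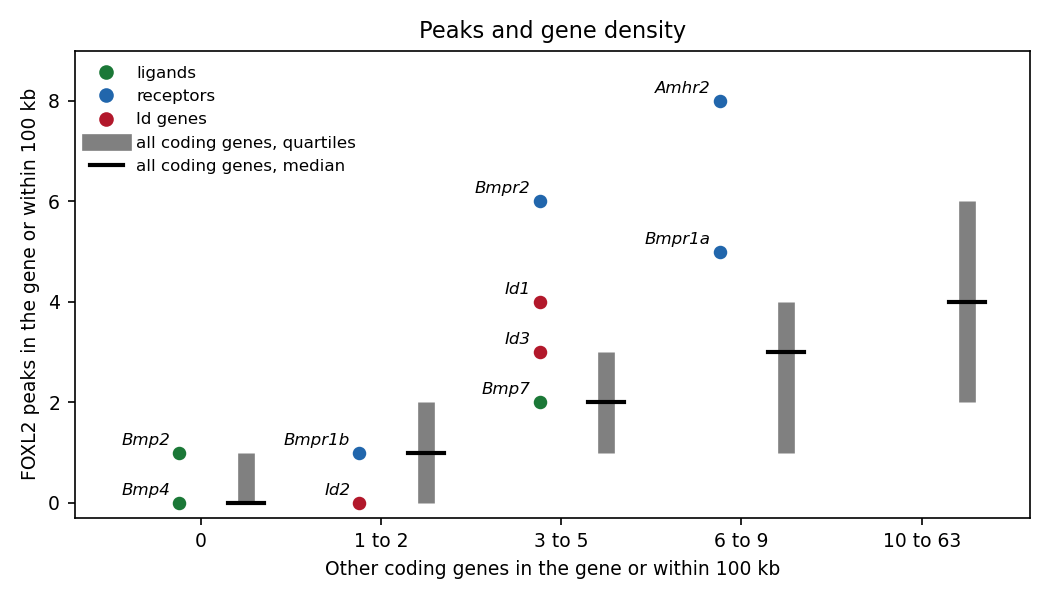
FOXL2 peaks in the gene or within 100 kb against the number of other coding genes there. Coloured points are the 10 genes, and beside them grey bars and black lines give the quartiles and median of all coding genes in that range of neighbours. Amhr2, Bmpr1a, Bmpr2 and Id1 lie above the grey bar of their range.

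Base composition of the promoters was read next, since it is independent of how the genes were chosen. The ratio of observed to expected CpG dinucleotides was 1.02 for Bmpr1a and 0.885 for Bmpr2, the promoters that lie next to peaks. It was 0.711 for Id2, 0.704 for Id3, 0.419 for Bmp4 and 0.219 for Amhr2, and between 0.258 and 0.291 for the 3 listed promoters of Bmpr1b, of which 2 overlap. The median was 0.867 for the 2073 RefSeq promoters that overlapped a peak by at least 150 bp, 0.301 for those with no overlap, and 0.383 for all 32817. Id2 and Id3 thus had no peak at promoters with a CpG ratio above the median of all promoters, and Bmpr1b had its peak away from its CpG-poor listed promoters.

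Of 10 short motifs searched on both strands, the forkhead motif GTAAACA and its core TAAACA were in none of the 7 genes' promoters. Over all promoters, 3.65% held GTAAACA and 13.4% held TAAACA, which is part of the longer motif. The shares are per promoter, whereas a gene counts if any of its listed promoters holds the motif, and Bmpr1b alone of the 7 has several. The short SMAD motif CAGAC was in promoters of Id3 and Bmpr1b, and 49.6% of all promoters held it. The GC-rich motif GGCGCC was in those of Bmpr1a, Bmpr2 and Id2, against 11.9% of all promoters. It was in 29.3% of the 2073 promoters that overlapped a peak by at least 150 bp and 8.83% of the 27454 with no overlap, with smaller overlaps left out, and these sets differ in CpG as given above. The NR5A1 motif AAGGTCA, 231 bp upstream of the start, was in the promoter of Amhr2 and in 4.72% of all promoters. The E-box CACGTG was in the Bmp4 promoter and in 7.15% of all. The SMAD palindrome GTCTAGAC, the GATA motif AGATAA, the RUNX motif TGTGGT and the CRE motif TGACGTCA were in none of the 7, and in 0.213%, 11.2%, 16.8% and 1.79% of all promoters. A match is a run of letters and not a bound site, and the peaks of the 10 genes lie outside these windows.

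More of the pathway was read from a list of 47 other genes, which leaves out SMAD genes, follistatin, activins and inhibins. A nearest peak within 100 kb was found for 26 of them, 55.3%, against the 40.4% of all coding genes, and any peak in the window for 40, 85.1%, against 76.3%. The same 40.4% is the background for the count of each role below. The roles hold few genes and were not compared with each other. Among other ligands 4 of 13 had a nearest peak. Gdf6, a BMP of joint and eye development, had 5, and Bmp6 (681 bp outside), Bmp8b (1058 bp inside) and the oocyte ligand Gdf9 (4211 bp outside) had 1 each. Amh, the ligand of Amhr2, had none, and its closest peak was 6.33 kb away. Bmp3, Bmp5 and Gdf2 had no peak in the window, with the closest 301, 149 and 252 kb away.

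Among other receptors 3 of 4 had a nearest peak. Acvr1, a type I BMP receptor, and Acvr2a, a type II receptor shared with activin, had 2 each, the closest to an end being 147 and 115 bp inside. Acvr2b had 1, 1079 bp inside, and Acvrl1, the endothelial type I receptor, had none.

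Genes of extracellular modulators had a nearest peak in 9 of 16 cases. The BMP antagonist noggin, Nog, had 2 inside its 1.92 kb gene, and Bmper and the BMP co-receptor genes Rgma and Rgmb also had 2 inside. Tgfbr3, the co-receptor betaglycan, had 2, of which the closest was 333 bp inside, and Fstl1, Twsg1 and Tll1 had 1. The BMP antagonist gene Chrdl1 had no peak in the window, the closest lying 270 kb away.

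Against 40.4% of all coding genes, all 6 inhibitor genes on the list had a nearest peak. These were the ubiquitin ligase genes Smurf1 (174 bp outside) and Smurf2 (146 bp inside), the SMAD corepressor genes Ski and Skil with 2 peaks each, Tob1 with 2 inside, and the decoy receptor gene Bambi with 1, 986 bp inside. Of the other target genes 4 of 8 had a nearest peak. Msx2 had 3, Id4, the remaining Id family gene, had 2 with the closer 806 bp inside, and Dlx5 (365 bp) and Gata3 (5502 bp) had 1 inside. Msx1 and Atoh8 had no peak in the window, the closest at 143 and 108 kb.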

How the data were processed

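FOXL2 ChIP-seq and input samples of E14.5 CD1 ovaries were grouped by their titles. Per the submitters' processing notes, Bowtie 1.2, Picard 1.110, bedtools 2.24.0, HOMER 4.9 and build mm10 were used, and the role of each, the peak threshold and any pooling were not given in the sources used here. Values deposited by the authors are peak start and end positions in bp, which carry no other unit. Starts were made 1-based, peak centres were used, and 3 of 11438 peaks, on scaffolds, were left out. Genes came from RefSeq GRCm38.p6, as start and end without exons, and starts and promoters from its promoter table. The nearest coding gene is that with the closest end. Python 3.11.15 with numpy 2.4.6 and pandas 2.3.3 was used, and the counting was tested on simulated peaks. No test of chance was made. The genes, lists and motifs were chosen with earlier results of these data known. Named genes are the 10, the genes nearest to their peaks, and pathway genes with a nearest peak in or within 10 kb (up to 8 a role) or with none within 100 kb. A few genes that this rule takes are not reported here.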

Additional observations from a re-analysis of the deposited data

How the results depend on the processing

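The count of 30 peaks in the windows of the 10 genes was 18 with 50 kb on each side and 46 with 200 kb. It was 8 with nearest peaks alone, and 12 when these had no limit on distance, a setting added after seeing the data. The numbers of genes with a peak stayed within 1.5 times of their main counts. Those with a nearest peak were 5 with genes of all kinds and 7 with 200 kb, against 6. Counting any overlap or whole peaks moved none of the 4 counts. Merging peaks within 500 bp could not move them, since the closest centres in these windows were 602 bp apart. The forkhead motif was in 3.65% of promoters, and its core in 13.4%. No paired analysis was possible because the samples share 1 list of peaks, and for the same reason no sample could be left out. A stricter peak threshold could not be tried without scores. The unknown depth limits what a missing peak means.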
